A study of Mus musculus with 8 samples.

Results

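The imprinted Dlk1-Dio3 cluster is a run of microRNA (miRNA) genes on mouse chromosome 12. Its members were taken by name from the array files: a miRNA counted as a member when its name was one of 55 listed names of the cluster, or such a name with the asterisk that marks the minor strand of the hairpin. This gave 68 members, 55 listed names and 13 asterisk strands, of 611 mouse miRNAs on the array. The rule itself used names and no measured value, but the list was chosen with earlier results of these data known.

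Kidneys came from mice of the outbred ICR strain in which 1 ureter had been tied 7 days earlier. Unilateral ureteral obstruction (UUO) is a surgical model of urinary blockage and kidney fibrosis. The obstructed group held 4 kidneys. The control group held 4 contralateral kidneys, whose ureters were open, so control kidneys also came from operated mice and no unoperated animal entered the comparison. No genotype, drug or sham operation distinguished the groups, and age and sex are not given in the sources used here. The labels do not say that kidneys of a group came from separate mice, so the p-values measure only the spread between these samples.

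The Dlk1-Dio3 domain carries protein genes that are transcribed from the paternal chromosome (Dlk1, Rtl1 and Dio3) and long noncoding RNAs that are transcribed from the maternal chromosome (Meg3, Rian and Mirg). The miRNAs are cut from the maternal transcripts, as one of the largest clustered groups of miRNAs in mammals. They are known for high levels in the embryo, the placenta and the brain, and for low levels in most adult tissues. A mature miRNA finds its targets mainly through its seed, bases 2 to 8 counted from the 5′ end.

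A member was called seen, or above background, in a kidney if more than 50% of the spots of any 1 of its probes bore the scanner software's mark for signal well above background. By this rule 10 of the 68 members were above background on at least 1 array. Their mature sequences are shown because every level reported for the cluster rests on these molecules and because their base composition is set beside that of the remaining members. The prefix mmu, for mouse, is left off after this. The sequences are those of RefSeq for GRCm38.p6, 5′ to 3′, with the seed in capitals, in the order of their positions along the plus strand.
mmu-miR-770-3p: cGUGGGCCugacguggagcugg
mmu-miR-127: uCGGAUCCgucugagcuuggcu
mmu-miR-341: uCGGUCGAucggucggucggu
mmu-miR-370: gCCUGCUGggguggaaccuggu
mmu-miR-379: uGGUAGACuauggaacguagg
mmu-miR-494: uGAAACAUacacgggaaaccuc
mmu-miR-666-5p: aGCGGGCAcagcugugagagcc
mmu-miR-300*: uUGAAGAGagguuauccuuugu
mmu-miR-300: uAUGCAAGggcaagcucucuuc
mmu-miR-134: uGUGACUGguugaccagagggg

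No seed was shared among these 10 members. Among the 65 members matched to a RefSeq mature sequence, 1 seed occurred in more than 1 member, UGGAUAU in miR-376b* and miR-376c*. miR-376c, miR-485 and miR-487b are given by name only. The matched members came from 45 precursors, and their mature sequences lay at chr12:109563710-109743784, a span of 180 kb. G and C made up a median of 59.1% of bases in the 10 members seen on an array (range 36.4% to 72.7%). In the 55 matched members not seen on any array the median was 45.5% (range 23.8% to 68.2%). At least 50% of bases were G or C in 7 of the 10 and in 24 of the 55. These are descriptions of the 2 sets of sequences, and the part of base composition in the signal was not tested.

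Levels are processed spot signals in arbitrary units, with local background subtracted by the scanner software, so values below 0 occur. All 6 miRNAs listed as kidney tubule markers were above background on all 8 arrays. So were 5 of 7 leukocyte markers and 3 of 8 brain markers, so detection alone does not identify the tissue. The 8 arrays lay on 1 slide, with kidneys 1 and 2 of each group in row 1 and kidneys 3 and 4 in row 2. Arrays differed in brightness. Over the probes detected in all kidneys, the 75th percentile of signal was 417 to 582 in the control kidneys and 689, 514, 1403 and 1595 in obstructed kidneys 1 to 4. Obstructed kidney 2 was unlike the rest of its group. Its summed level of 7 leukocyte markers, in units of that 75th percentile, was 1.88, against 1.98 to 2.71 in the control kidneys and 6.84 to 7.69 in the other 3 obstructed kidneys. The number of members seen, the change of miR-494 and the calls of a further fit are given with and without it. Group means of signal include it. Control kidney 2 and obstructed kidney 2 also held more of 3 erythroid markers, which summed to 44.6 and 24.4 in them and to 5.15 to 7.57 in the other 6 kidneys.

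Most members were not seen in either kind of kidney. The number above background was 3, 1, 2 and 3 of 68 in control kidneys 1 to 4 and 2, 4, 4 and 9 in obstructed kidneys 1 to 4. The groups overlapped, and obstructed kidney 4 had the most. As a share this was 1.47% to 4.41% of members in control kidneys, and in obstructed kidneys it was 2.94%, 5.88%, 5.88% and 13.2%. Of the 543 other mouse miRNAs, 41.6% to 43.7% were above background in control kidneys and 45.7%, 44.0%, 52.3% and 55.4% in obstructed kidneys 1 to 4. The counts of both sets were highest on the brightest array, and the part of array brightness in the members' counts was not tested. Over all arrays, 10 of 68 members (14.7%) were seen at least once and 1 (1.47%) on every array. The same 2 figures were 311 of 543 (57.3%) and 204 (37.6%) for the other mouse miRNAs. For the 39 names of the imprinted Sfmbt2 intron cluster, another large imprinted miRNA group of the mouse, they were 22 (56.4%) and 11 (28.2%).

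**Figure D1:**
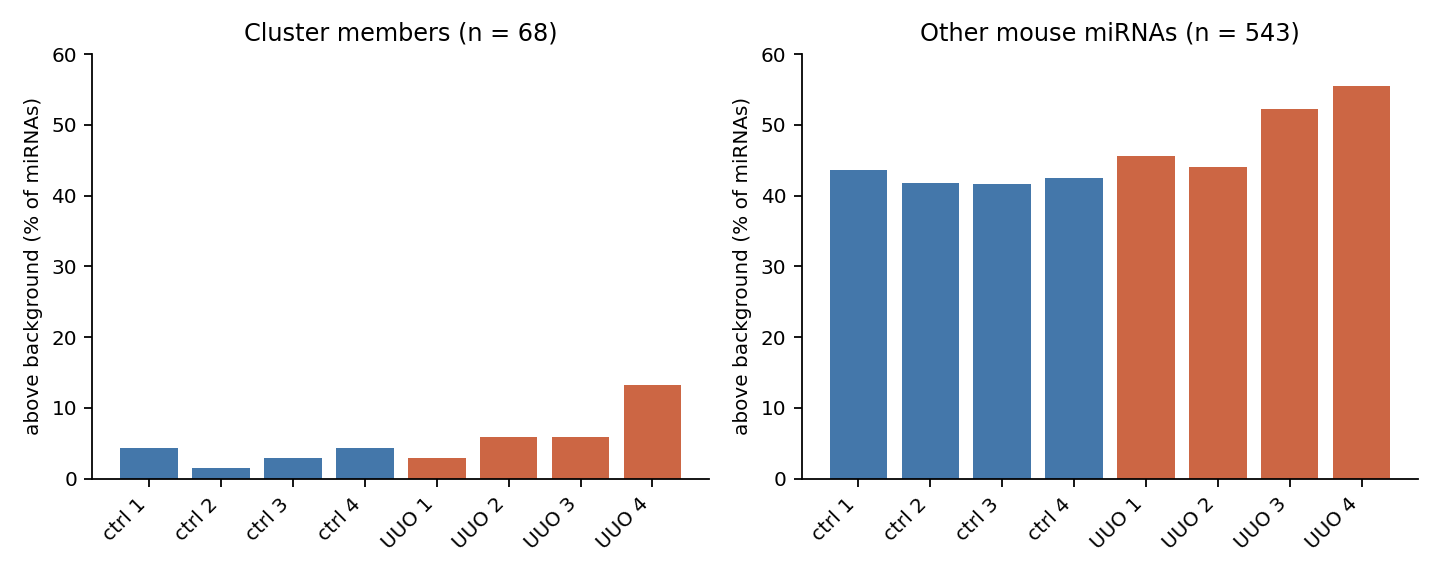
Share of miRNAs above background on each array (percent of miRNAs, y axis), for the 68 cluster members on the left and the 543 other mouse miRNAs on the right, with control kidneys in blue and obstructed kidneys in orange. Members stayed between 1.47% and 13.2% on every array, while the others lay between 41.6% and 55.4%.

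Among the members, 3 were seen in at least 1 control kidney (miR-494, miR-370 and miR-134), and all 3 were also seen in obstructed kidneys. A further 7 were seen in obstructed kidneys only: miR-127, miR-379, miR-770-3p, miR-341, miR-666-5p, miR-300 and miR-300*. No member was seen in control kidneys only. Among the other mouse miRNAs, 59 were seen in obstructed kidneys only and 1 in control kidneys only, so an imbalance of this direction was also present in the rest of the array. Without obstructed kidney 2 the number of members seen was still 10, and without obstructed kidney 4 it was 6, of which 3 were seen in obstructed kidneys only. Of the asterisk strands 1 of 13 was seen, against 9 of 55 listed names. On the log2 scale, with each array divided by its 75th percentile, the obstructed mean of each of the 7 members seen in obstructed kidneys only lay below the control mean of the dimmest signal called above background. No fold is given for them.

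The 58 members that were not above background on any array were miR-136, miR-154, miR-299, miR-323-3p, miR-329, miR-337-3p, miR-337-5p, miR-369-3p, miR-369-5p, miR-376a, miR-376b, miR-376c, miR-377, miR-380-3p, miR-380-5p, miR-381, miR-382, miR-409-3p, miR-409-5p, miR-410, miR-411, miR-412, miR-431, miR-433, miR-434-3p, miR-434-5p, miR-485, miR-487b, miR-493, miR-495, miR-496, miR-539, miR-540-3p, miR-540-5p, miR-541, miR-543, miR-544, miR-665, miR-666-3p, miR-667, miR-668, miR-673-3p, miR-673-5p, miR-679, miR-758 and miR-770-5p, and the asterisk strands miR-127*, miR-136*, miR-154*, miR-299*, miR-376a*, miR-376b*, miR-376c*, miR-382*, miR-411*, miR-431*, miR-433* and miR-485*. Each member had 20 spots per array over 1 to 4 probes. The 164 probes of these 58 members had median signals of -0.84, -0.49, -0.48 and -0.20 in control kidneys 1 to 4 and of -0.35, -0.56, -0.18 and 0.14 in obstructed kidneys 1 to 4. The medians of the 434 negative control spots ran from 0.953 to 2.12. The members were selected here for lack of signal, and a probe's signal is a mean over its spots, so the 2 sets are shown side by side without a test.

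The unseen members with the highest single signals were miR-665 and miR-667. miR-665 read 2.48, 0.585, -0.56 and 2.94 in control kidneys 1 to 4 and 0.395, 4.11, 0.222 and 11.8 in obstructed kidneys 1 to 4. miR-667 read 3.63, 2.26, 0.508 and 2.51 in the control kidneys and 0.461, 6.34, 1.41 and 11.8 in the obstructed kidneys. In unscaled signal both were highest in obstructed kidney 4, next in obstructed kidney 2, and within the control range or below it in obstructed kidney 1. The brightness measure given above was 1595 on the array of obstructed kidney 4 and 514 on that of obstructed kidney 2. Relative to that measure, both signals were higher in obstructed kidney 2 than in obstructed kidney 4. The lowest probe called above background was at 9.59 to 11.8, depending on the array, so lower levels were not called seen by the rule used. In obstructed kidney 4 it was at 11.3, and miR-665 and miR-667 at 11.8 were still not called, because too few spots bore the mark. Lack of a call does not show that a level equals background.

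**Figure D2:**
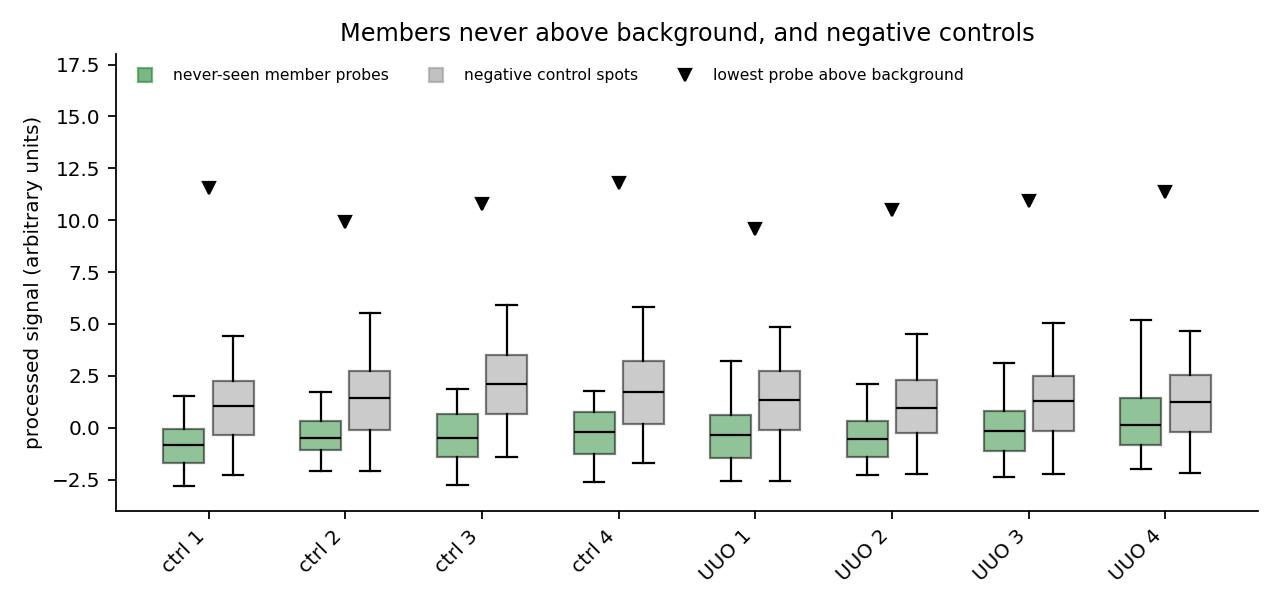
Processed signal (arbitrary units, y axis) on each array of the 164 probes of members never above background (green) and of the 434 negative control spots (grey); boxes span the 25th to 75th percentile with the median as a line, whiskers reach the 5th and 95th percentile, and triangles mark the lowest mouse probe above background. The green medians lie between -0.84 and 0.14 and the grey medians between 0.953 and 2.12; each green value is a mean over spots and each grey value a single spot, so their spreads are not comparable.

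miR-494 was the member present in every kidney. It is cut from a hairpin in the large downstream group of the cluster (mature at chr12:109715367-109715388). The brighter of its 2 probes read 436, 174, 365 and 394 in control kidneys 1 to 4. In obstructed kidneys 1 to 4 it read 278, 255, 805 and 3188. Obstructed kidneys 1 and 2 lay inside the control range, obstructed kidney 3 lay above it, and obstructed kidney 4 was far above every other kidney. The dimmer probe gave the same order at the top, with 130, 55.2, 150 and 138 in the control kidneys and 102, 76.3, 310 and 1198 in the obstructed kidneys.

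To compare groups, signals were expressed relative to the 75th percentile of their own array, summed over the probes of a miRNA and put on a log2 scale, so a change is one against the brighter miRNAs of that kidney. On this scale miR-494 was at 0.14, -0.87, -0.10 and -0.13 in control kidneys 1 to 4 and at -0.86, -0.63, -0.33 and 1.46 in obstructed kidneys 1 to 4. Once scaled, 3 obstructed kidneys lay within the control range and 1, obstructed kidney 4, lay above it. The means were -0.24 ± 0.44 (SD, n = 4) in control and -0.09 ± 1.06 (SD, n = 4) in obstructed kidneys. The change was 0.15 ± 0.51 (SE) on the log2 scale and did not pass the test (limma, Benjamini-Hochberg adjusted p = 0.856). The median change of all 222 miRNAs tested was -0.14.

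Only miR-494 met the requirement for that test, detection on all 4 arrays of a group, so 0 of 1 tested member was called, and 0 of 1 passed at an unadjusted p under 0.05 either. Over all 222 miRNAs tested by limma, 14.9% were called, 1.35% higher and 13.5% lower in obstructed kidneys. Without obstructed kidney 2 the change of miR-494 was 0.33 (limma, adjusted p = 0.675). Without obstructed kidney 4 the change of miR-494 turned to -0.37 (limma, adjusted p = 0.419), and without control kidney 2, the lowest of the controls for miR-494 and 1 of the 2 kidneys with high erythroid markers, to -0.059. The part of the erythroid markers in this value was not tested. Within slide row 1 it was -0.38 and within slide row 2, which holds obstructed kidney 4, it was 0.68. In RNA from whole kidneys, fewer cells that carry a miRNA and less of it per cell cannot be told apart.

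**Figure D3:**
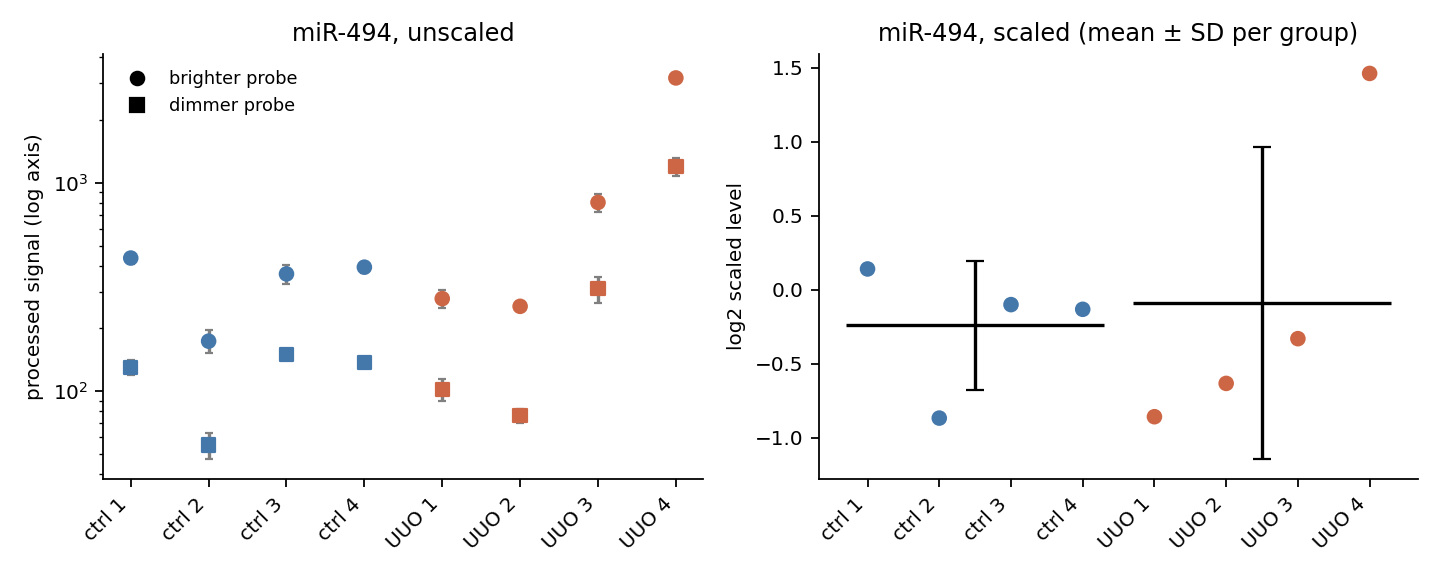
Left, processed signal of the brighter (circles) and dimmer (squares) miR-494 probe on each array, on a log axis, with bars for the SD over spots. Right, the log2 scaled level of miR-494 on each array with the mean and SD of each group (n = 4); obstructed kidney 4 stands at 1.46 and the other 3 obstructed kidneys lie at or below -0.33.

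Over the 8 arrays, the 3 miRNAs outside the cluster whose log2 levels were most like that of miR-494, among 221 compared, were miR-188-5p, miR-139-5p and miR-685. Pearson's r was 0.79, 0.773 and 0.768, and Spearman's rho was 0.476, 0.524 and 0.19. Obstructed kidney 4 was the highest array for all 3, and the arrays share their scaling, so these values describe a likeness that rests largely on 1 array in the linear measure.

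miR-370 and miR-134 were the members seen in both groups but not on every array. miR-370 is one of a pair of members inside the Rian transcript (chr12:109618305-109618326). Its brighter probe read 21.9, 11.4, 13.1 and 18.8 in control kidneys 1 to 4 and 8.45, 21.7, 17.0 and 66.1 in obstructed kidneys 1 to 4. It was above background in control kidneys 1, 3 and 4 and in obstructed kidneys 2, 3 and 4. In unscaled signal obstructed kidney 4 was highest, obstructed kidney 1 was lowest, and the other 6 kidneys overlapped. As a share of its array's 75th percentile, this probe was at 4.15% in obstructed kidney 4. It was at 4.26% in control kidney 1 and 4.21% in obstructed kidney 2, and lowest in obstructed kidney 3 (1.21%), next to obstructed kidney 1 (1.23%). On the log2 level summed over both probes, obstructed kidney 4 stayed highest at -3.78, against -4.10 in control kidney 1. The second probe of miR-370 was above background in obstructed kidney 4 only, at 50.1.

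miR-134 lies near the downstream end of the cluster (chr12:109734145-109734166) and is known in neurons as a brake on dendritic spine growth through Limk1. The brightest of its 4 probes on each array read 23.0, 9.80, 2.60 and 15.2 in control kidneys 1 to 4. In obstructed kidneys 1 to 4 it read 4.19, 42.3, 9.18 and 58.1. In these unscaled signals obstructed kidneys 2 and 4 lay above every control kidney, while obstructed kidneys 1 and 3 lay inside the control range. On the log2 scaled level only obstructed kidney 2 (-2.10) lay above every control kidney. Obstructed kidney 4 was at -3.21 on that scale, below control kidney 1 at -2.97. It was above background in control kidneys 1 and 4 and in obstructed kidneys 2 and 4.

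miR-770-3p, from the Meg3 transcript at the upstream end (chr12:109563744-109563765), was again highest in obstructed kidneys 4 and 2. Its brightest probe read 9.95, 2.15, 2.08 and 7.09 in control kidneys 1 to 4 and 1.59, 13.3, 6.37 and 52.2 in obstructed kidneys 1 to 4. It was above background in obstructed kidneys 2 and 4. The lowest unscaled signal was in obstructed kidney 1, as for miR-370, and obstructed kidney 3 lay inside the control range.

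A further 4 members were seen in obstructed kidney 4 and in no other kidney. miR-341, the neighbour of miR-370 in Rian, read 3.08, 2.56, 1.35 and 4.86 in control kidneys and 6.26, 9.25, 4.60 and 16.5 in obstructed kidneys 1 to 4. miR-666-5p read 3.21, 1.39, 0.632 and 5.65 in control kidneys and 3.55, 5.82, 4.75 and 14.6 in obstructed kidneys. Both lay above every control kidney in obstructed kidneys 2 and 4, miR-341 did so in obstructed kidney 1 too, and obstructed kidney 3 lay inside the control range for both. Summed over probes, as a share of the array's 75th percentile, miR-341 was highest in obstructed kidney 2 (3.14%), against 1.68% in obstructed kidney 4. On that scale miR-666-5p stayed highest in obstructed kidney 4, at 2.64%.

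The other two came from the strands of 1 hairpin. miR-300* read 6.12, 4.31, 3.13 and 6.32 in control kidneys and 3.68, 7.32, 2.68 and 15.0 in obstructed kidneys. miR-300 read 3.65, 2.82, 2.08 and 5.54 in control kidneys and 5.24, 4.42, 9.15 and 16.7 in obstructed kidneys. In unscaled signal the strands had their highest value in the same kidney, but obstructed kidney 3 was the lowest of all 8 for miR-300* and the second highest for miR-300. Summed over probes, as a share of the array's 75th percentile, miR-300* was highest in obstructed kidney 2 (2.31%). On that scale it was at 1.35% in obstructed kidney 4 and at 1.96% to 2.13% in control kidneys 1, 2 and 4. miR-300 stayed highest in obstructed kidney 4 (1.43%).

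Some other known miRNAs of the same stretch of chromosome 12 were not on the list of members. Of 5 such names on the array, miR-453, miR-1193 and miR-1197 were not above background on any array. miR-1188 was above background on 2 control and 2 obstructed arrays, and miR-882 on 3 of each. From other places on chromosome 12, miR-342-3p, which is also on the list of leukocyte markers, and miR-345-5p were above background on all 8 arrays.

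miR-127 and miR-379 showed a different order of kidneys. miR-127 lies antisense to Rtl1 (chr12:109592888-109592909), and in placenta it is known to restrain that gene. The brighter of its 2 probes read 1.77, 2.83, 2.39 and 3.81 in control kidneys 1 to 4 and 13.4, 1.50, 22.0 and 17.2 in obstructed kidneys 1 to 4. Obstructed kidneys 1, 3 and 4 lay above every control kidney and were above background, while obstructed kidney 2 lay below every control kidney. The means were 2.70 ± 0.858 (SD, n = 4) in control and 13.5 ± 8.76 (SD, n = 4) in obstructed kidneys. No spot of this probe carried the mark in any control kidney, against 8 of 10, 0 of 10, 10 of 10 and 9 of 9 in obstructed kidneys 1 to 4. The second probe of miR-127 was not above background on any array.

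miR-379 is the first member of the large downstream group (chr12:109709065-109709085), a group known in neurons to be switched on by activity. Its brighter probe read 1.31, 0.925, 0.467 and -0.80 in control kidneys 1 to 4 and 7.37, 0.785, 11.3 and 10.2 in obstructed kidneys 1 to 4. Obstructed kidneys 1, 3 and 4 again lay above every control kidney and obstructed kidney 2 lay among them. It was above background in obstructed kidney 3 only, where 5 of 9 spots carried the mark, and 2 of 10 did in obstructed kidney 4. The means were 0.475 ± 0.916 (SD, n = 4) in control and 7.41 ± 4.72 (SD, n = 4) in obstructed kidneys.

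**Figure D4:**
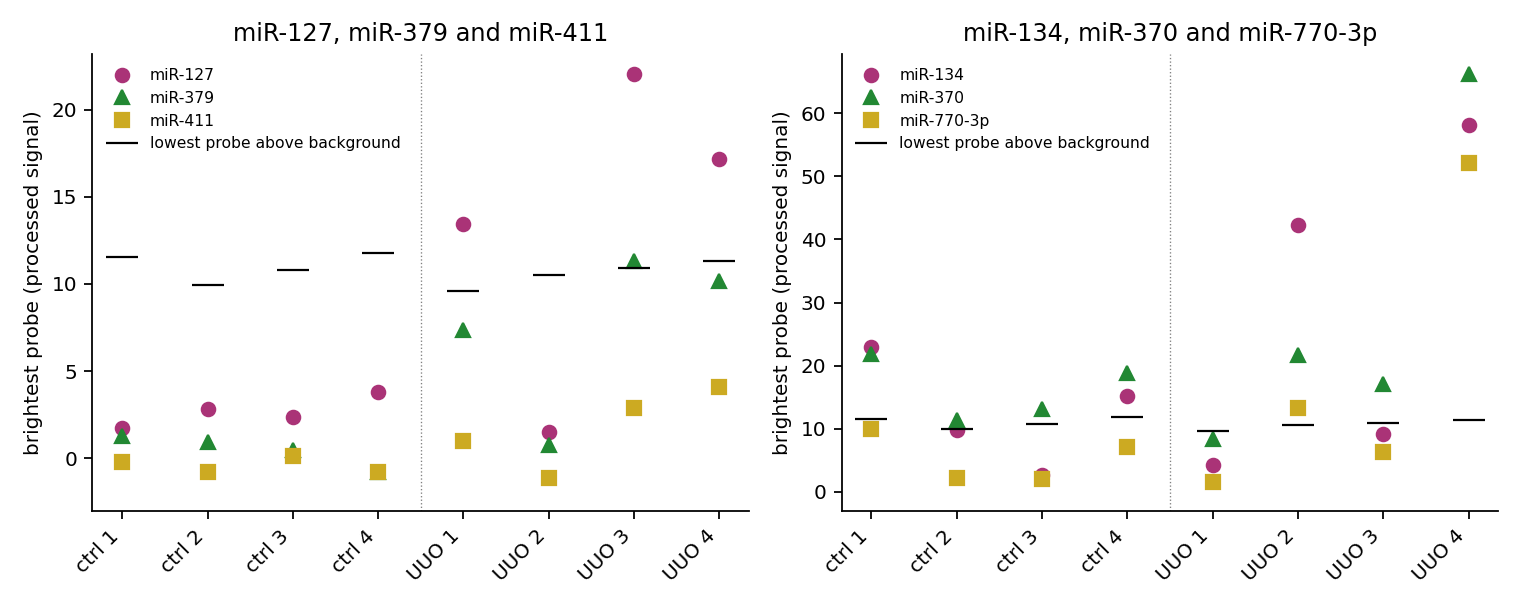
Processed signal of the brightest probe of each member on each array (arbitrary units, y axis; the axes differ in range), for miR-127, miR-379 and the never-detected miR-411 on the left and for miR-134, miR-370 and miR-770-3p on the right; short black lines mark the lowest mouse probe above background on that array. On the left, miR-127 and miR-379 are high in obstructed kidneys 1, 3 and 4, and on the right obstructed kidneys 2 and 4 are the high arrays for miR-134 and miR-770-3p.

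Obstructed kidneys 1, 3 and 4, the kidneys in which miR-127 was seen, were also the 3 with the brightest arrays. The 75th percentile of signal was 689, 1403 and 1595 in them and 417 to 582 in the other 5 kidneys. As a share of its array's 75th percentile, the brighter miR-127 probe was at 0.344%, 0.679%, 0.432% and 0.654% in control kidneys 1 to 4. In obstructed kidneys 1 to 4 it was at 1.95%, 0.292%, 1.57% and 1.08%. On this scale too, obstructed kidneys 1, 3 and 4 lay above all controls and obstructed kidney 2 below them. The part of array brightness in the detection of miR-127 was not tested. The same 3 obstructed kidneys held more of the fibroblast and leukocyte markers. The summed scaled level of 5 fibroblast and mesenchyme markers was 3.52 to 4.78 in control kidneys and 14.6, 2.80, 9.69 and 12.5 in obstructed kidneys 1 to 4, with 4 of the 5 above background on all arrays. The 7 leukocyte markers, 5 of them above background on all arrays, summed to 1.98 to 2.71 in control kidneys and to 7.69, 1.88, 7.40 and 6.84 in obstructed kidneys 1 to 4. The part of these cell types in the levels of miR-127 and miR-379 was not tested. Of 8 brain markers, miR-9, miR-9* and miR-128 were above background on all 8 arrays, miR-219 on 1, and miR-124, miR-129-5p, miR-137 and miR-138 on none. The list summed to 0.266 to 0.345 in control and 0.219 to 0.274 in obstructed kidneys.

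miR-127 and miR-379 were not above background on all 4 arrays of a group, so they did not enter the main test. They did enter the planned fit with no filter. There both lay at the common floor on every array, so that fit could not measure a change. A further limma fit, chosen after the values were seen, set summed scaled signals below 0 to 0 and then added a small offset. It kept all 611 miRNAs. In that fit 2.95% of miRNAs were called, 0.327% higher and 2.62% lower, and 0 of 68 members, with 3 members at an unadjusted p under 0.05. At that unadjusted threshold 121 of all 611 miRNAs (19.8%) passed. No change is printed for miR-127 or miR-379 from this fit, because their control signals were at background and the offset sets the size of the difference.

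Obstructed kidney 2 was the obstructed array nearest to the controls, so leaving it out separates the groups by construction. Without it, this fit called 4 of 68 members higher (miR-127, miR-379, miR-411 and miR-434-5p) and 0 lower. Of all 611 miRNAs 20.1% were called, 9.82% higher and 10.3% lower. miR-411, the neighbour of miR-379, and miR-434-5p, the neighbour of miR-127, peaked at signals of 4.08 and 3.15 and were not above background on any array. In every control kidney the summed signals of miR-379, miR-411 and miR-434-5p were below 0 and were set to 0. Their control values were thus identical (log2 -5.56), so these calls do not rest on a measured spread between control kidneys. The share of members called was lower than the share of all miRNAs called, and leaving out any other single kidney called 0 members in this fit.

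Members seen and unseen lay side by side along the chromosome. By RefSeq gene spans, 2 members lay inside Meg3, of which miR-770-3p was seen, and 18 lay within the span of Rtl1 on the opposite strand, of which miR-127 was seen. Rian held 2 members, miR-341 and miR-370, and both were seen. Mirg held 11 members, including miR-154, miR-377, miR-409-3p and miR-410, and 0 of them were seen. The remaining 32 matched members, in the stretch between Rian and Mirg, included 6 that were seen: miR-379, miR-494, miR-666-5p, miR-300*, miR-300 and miR-134.

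**Figure D5:**
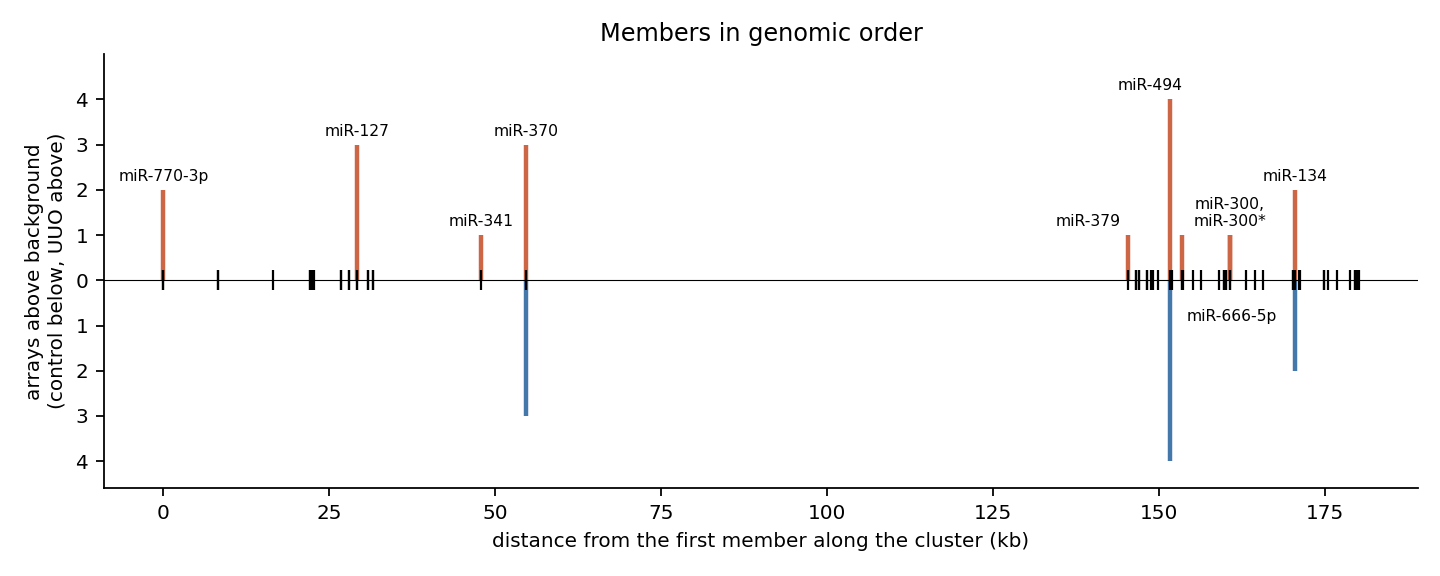
Matched members along the cluster by distance from the first member (kb, x axis), each marked by a black tick, with lines for the number of obstructed (orange, upward) and control (blue, downward) arrays of 4 on which the member was above background. Lines stand at 9 positions among ticks without one, and miR-494 alone reaches 4 arrays in both directions; miR-666-5p, labelled under the axis, has its line upward.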

How the data were processed

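Total RNA (100 ng, Cy3) from 8 kidneys was measured on 1-colour Agilent mouse miRNA arrays, per the labels. The authors deposited spot intensity values from Agilent Feature Extraction (10.7.3.1 per the file headers, 10.1.1 per the submitters' processing notes), background-subtracted and not scaled between arrays. Per-spot marks (0 or 1, other values) for outliers and for signal well above background were deposited too. The authors' series matrix held the same intensity values.

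Outlier spots were left out, spots averaged per probe, and each array divided by its 75th percentile over 371 probes above background on all arrays. Probes of a miRNA were summed, a floor of 0.0213 (log2 -5.56) was set, and log2 was taken. miRNAs above background on all 4 arrays of a group went into a two-sided limma test (3.58.1, R 4.3.3). Benjamini-Hochberg adjustment covered all 222 tested miRNAs, and an adjusted p under 0.05 made a call. The fit was tested on simulated data.

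Members above background at least once were named with values and the others by name. The members and lists were chosen with earlier results of these data known. Older miRNA names were paired with current arm names by hand for the RefSeq match. Where the text says brightest probe, it is the brightest on each array.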

Additional observations from a re-analysis of the deposited data

How the results depend on the processing

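The 33 miRNAs called over the array fell to 0 with the 75th percentile over all probes, with normexp and within slide row 1 (57, 54 and 1 at an unadjusted p under 0.05 by limma). They fell to 3 with no scaling, with quantile normalization, with the summed gene signal and with the unscaled series matrix, and to 17 with no filter, and rose to 69 within slide row 2. A fit with the kidney number as a replicate block called 0 (67 at an unadjusted p under 0.05). The deviations of same-numbered kidneys from their group means correlated at -0.35, 0.22, 0.62 and 0.015 for kidneys 1 to 4. Control kidney 2 and obstructed kidney 2 also shared high erythroid markers. The labels do not say whether same-numbered kidneys came from the same mouse, and these values cannot decide it. The main fit was therefore unpaired. Leaving out 1 kidney gave 0 to 128 calls, with 128 without obstructed kidney 2, 20 without control kidney 2, 14 without obstructed kidney 4 and 0 without any of the others. The offset fit, chosen after seeing the data, called 18, and 2 to 123 with 1 kidney left out: 123 without obstructed kidney 2, 19 without control kidney 2 or obstructed kidney 4, 8 without control kidney 1 or obstructed kidney 3, and 2 to 5 without any of the others. The cause was not tested.

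No alternative to the scaling, floor or filter called a member, but few members could be called. The scaling and floor alternatives tested miR-494 only, and with no filter 60 of 68 members lay at the floor on every array. Members called higher ran from 0 to 4 with 1 kidney left out of the offset fit. Members tested went from 1 to 68 with no filter, to 5 with detection on at least 2 arrays, and to 1 or 2 with 1 kidney left out. The change of miR-494, and so of the tested members, was 0.15. It was 1.03 unscaled and 1.02 in the series matrix, where the median of all tested miRNAs was 0.74 and 0.73. It turned to -0.070 with normexp and to -0.38 within slide row 1, and ran from -0.37 to 0.41 with 1 kidney left out, below 0 without control kidney 2 (-0.059) and obstructed kidney 4 (-0.37). Its adjusted p stayed above 0.05 throughout. Members seen in a control kidney went from 3 to 6 when any marked spot sufficed and to 4 by the scanner software's gene detection mark. With at least 2 probes required they were 2. Members seen in an obstructed kidney went from 10 to 14 with any marked spot and to 13 by the gene detection mark. They fell to 5 with at least 2 probes required and to 6 with every spot required. The gene detection mark was also set for miR-329, miR-665 and miR-667, unseen by the main rule, and for miR-370 on every array. Signal over background limits all but miR-494.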
